A study of Mus musculus with 8 samples.

Results

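The MAP kinase cascade components described here are 41 mouse genes, named by a fixed list of symbols that covers 10 MAP kinases (MAPK), 7 MAP kinase kinases (MAP2K), 12 MAP kinase kinase kinases (MAP3K), 9 kinases that MAPKs phosphorylate and 3 genes of the Ras and Raf families. The list is a selection of each family, and the rule that defines it uses symbols and no measured value. The array paired 40 of the 41 genes with a probe through its RefSeq accession, out of 19751 genes paired in this way, and Map3k10 was not analysed here. These 40 genes had 64 probes, of which 63 were tested, and Map2k6 had no tested probe. The values below are therefore those of 39 members.

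MAP kinase cascades carry signals from the cell surface and from stress to the nucleus and to protein synthesis. A small GTPase such as Ras or a stress sensor activates a MAP3K, which phosphorylates a MAP2K, which in turn phosphorylates a MAPK on a threonine and a tyrosine. The branches are known by their terminal kinases: the ERKs respond mainly to growth factors, while JNK and p38 respond mainly to stress and cytokines, and in corticotroph cells MAPK signalling is known as a route by which corticotropin-releasing hormone acts on the Pomc gene. Much of the regulation is by phosphorylation, which an array of RNA does not measure.

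RNA was measured in AtT20 cells, a mouse pituitary corticotroph tumor line that produces ACTH from the Pomc precursor. The 4 control samples were incubated without HX630, and the 4 HX630 samples with 10 μM of this synthetic agonist of the retinoid X receptor (RXR), both for 48 hr in medium with 1% stripped serum. No genetic change is given for either group. The study dissolved its agonists in DMSO, kept at a fixed final concentration, while the labels name no vehicle in the control medium. With 1 cell line at 1 dose and 1 time, the comparison is limited to that setting. Each sample was hybridised to a 1-color Agilent mouse array, and the study made this comparison to look for expression changes behind the effects of the agonist on growth and death of the cells.

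The level of a probe on an array is its processed signal in log2 units relative to the array's 75th percentile, so that 0 is that percentile and 1 unit is a doubling. A gene is represented by its brightest tested probe, and a probe was tested where at least 4 of the 8 arrays had it well above background. A difference is the HX630 mean minus the control mean on this log2 scale, and it was called when limma's p-value, adjusted by Benjamini-Hochberg over all 28553 probes tested, was below 0.01 and the fold change was above 1.5.

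The 75th percentile of the processed intensity was 1335 to 1863 on the control arrays and 1803 to 1899 on the HX630 arrays, 69.7% to 73.5% of probes were well above background on an array, and no probe spot was saturated. The control arrays shared 1 slide and 1 scan and the HX630 arrays shared another, so an effect of slide or scan and an effect of HX630 cannot be told apart in any difference below. Control replicate 1 stood slightly apart from its group, with a mean correlation of 0.9945 to the other control arrays against 0.9962 and 0.9963 for the others. Nothing in the labels says that the 4 samples of a group came from separate cultures, so the p-values measure only the spread between these samples, which may be technical. In RNA of whole cultures, fewer cells of a kind and less RNA per cell cannot be told apart.

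Promoter windows are shown for 4 called members that went apart from a close relative: the neighbouring genes Mapk12 and Mapk11, which moved in opposite directions, and Mapkapk3 and Mknk1, which were called lower while their closest relatives were not. They were chosen after the values were seen. Each window is the RefSeq sequence of the GRCm38.p6 assembly from 250 bases before to 50 bases after the transcription start, written 5′ to 3′ on the strand of the gene. Capitals mark a match to 1 of 6 motifs that were searched on both strands. The windows are chr15:89140654-89140953 (minus strand) for Mapk12, chr15:89149557-89149856 (minus strand) for Mapk11, chr9:107289347-107289646 and chr9:107289828-107290127 (minus strand) for the 2 starts of Mapkapk3, and chr4:115838948-115839247 (plus strand) for the upstream of the 2 starts of Mknk1.
Mapk12: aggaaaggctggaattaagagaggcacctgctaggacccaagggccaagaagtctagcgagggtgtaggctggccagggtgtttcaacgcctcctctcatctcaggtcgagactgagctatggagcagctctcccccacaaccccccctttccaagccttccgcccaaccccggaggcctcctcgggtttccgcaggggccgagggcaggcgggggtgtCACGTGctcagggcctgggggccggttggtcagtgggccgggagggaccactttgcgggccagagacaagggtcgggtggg
Mapk11: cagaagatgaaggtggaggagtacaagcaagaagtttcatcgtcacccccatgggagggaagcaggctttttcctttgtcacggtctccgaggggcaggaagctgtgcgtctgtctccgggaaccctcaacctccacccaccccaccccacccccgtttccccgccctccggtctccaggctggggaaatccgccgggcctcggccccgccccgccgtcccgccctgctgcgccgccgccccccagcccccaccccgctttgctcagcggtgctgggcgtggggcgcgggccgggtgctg
Mapkapk3 (start within the first window): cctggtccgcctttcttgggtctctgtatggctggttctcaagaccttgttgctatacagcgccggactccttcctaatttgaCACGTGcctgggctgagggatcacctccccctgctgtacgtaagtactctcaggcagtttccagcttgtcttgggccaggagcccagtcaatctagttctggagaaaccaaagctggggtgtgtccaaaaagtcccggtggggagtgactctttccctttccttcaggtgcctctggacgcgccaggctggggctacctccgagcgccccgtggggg
Mapkapk3 (start within the second window): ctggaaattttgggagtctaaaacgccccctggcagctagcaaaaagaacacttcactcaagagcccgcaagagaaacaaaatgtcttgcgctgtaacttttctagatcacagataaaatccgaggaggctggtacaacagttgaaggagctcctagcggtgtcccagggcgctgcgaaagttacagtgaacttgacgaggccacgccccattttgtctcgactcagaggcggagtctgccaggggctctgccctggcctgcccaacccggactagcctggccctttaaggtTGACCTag
Mknk1: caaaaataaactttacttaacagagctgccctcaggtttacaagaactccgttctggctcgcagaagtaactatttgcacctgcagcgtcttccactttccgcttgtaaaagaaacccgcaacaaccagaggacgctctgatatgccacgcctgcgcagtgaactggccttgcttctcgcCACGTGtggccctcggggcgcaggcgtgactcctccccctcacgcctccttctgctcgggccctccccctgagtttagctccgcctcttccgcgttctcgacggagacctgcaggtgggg

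The motifs were the nuclear receptor core AGGTCA, which RXR and its partners read, the direct repeat of this core with 1 base of any kind between the copies, the NBRE AAAGGTCA of the Nur77 family, which contains the core, the AP-1 site TGANTCA, the cyclic AMP response element TGACGTCA and the E-box CACGTG. Promoter windows were found for 35 members, 47 windows in all, among them 7 of the 9 called members. CACGTG lay in 6 of these 47 windows, which belong to 5 genes, and in 7.15% of all 32851 windows of the same length. Mapk12, Mapkapk3 and Mknk1, all called lower, hold it, with its first letter 31, 167 and 70 bases before the start. Rps6ka2, also called lower, does not hold it, while Nras and Map3k12, which were not called, do. The 2 windows of Mknk1 overlap, so its 1 site counts in 2 of the 6 windows. The core AGGTCA lay in 7 of the 47 windows, from 6 genes, against 16.3% of all windows, and of the called members Mapkapk3 alone had it, on the opposite strand (printed as TGACCT), from base 43 counted from its upstream start. No member window held the direct repeat, which lies in 0.0396% of all windows. The NBRE (1.51% of all windows), the AP-1 site (7.81%) and the cyclic AMP response element (1.79%) each lay in 1 member window, of Map2k4, Map2k7 and Mapk10 in this order. The Mapk11 window held none of the 6, which says only that these letters are not in it. A match is a description of letters and not a binding site.

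Of the 39 members tested, 9 were called, 4 higher with HX630 (Mapk3, Mapk11, Map2k3 and Rps6ka5) and 5 lower (Mapk12, Map3k8, Mapkapk3, Mknk1 and Rps6ka2). These 9 are 23.1% of the members, and 19.5% of all 15320 genes tested were called, so the share of members called was near that of all genes. In each direction the same held: 10.3% of members were called higher against 8.38% of all genes, and 12.8% were called lower against 11.2%. At an adjusted p below 0.01 with no limit on the fold change, 12 members were higher and 9 lower, where 24% and 27.2% of all genes were. The median difference of the members was 0.05, with a range from -1.17 to 1.20, and that of all genes was -0.03. The called members thus went in both directions, and Mapk11 and Mapk12, which encode related p38 kinases, were called in opposite ones.

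The HX630 arrays lay above all control arrays for 13 members and below all of them for 11, and the groups overlapped for 15. Among all genes, 28.6% lay above and 32.8% below. By tier, 3 of 10 MAPK genes were called, 1 of 6 MAP2K genes, 1 of 11 MAP3K genes, 4 of 9 downstream kinases and 0 of 3 Ras and Raf genes. Counting every difference at an adjusted p below 0.01 whatever its fold, these became 7, 3, 1, 8 and 2. The MAP3K genes thus held 10 of the 18 members with no difference at this threshold, and the downstream kinases 1. Differences between the tiers were not tested.

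**Figure D1:**
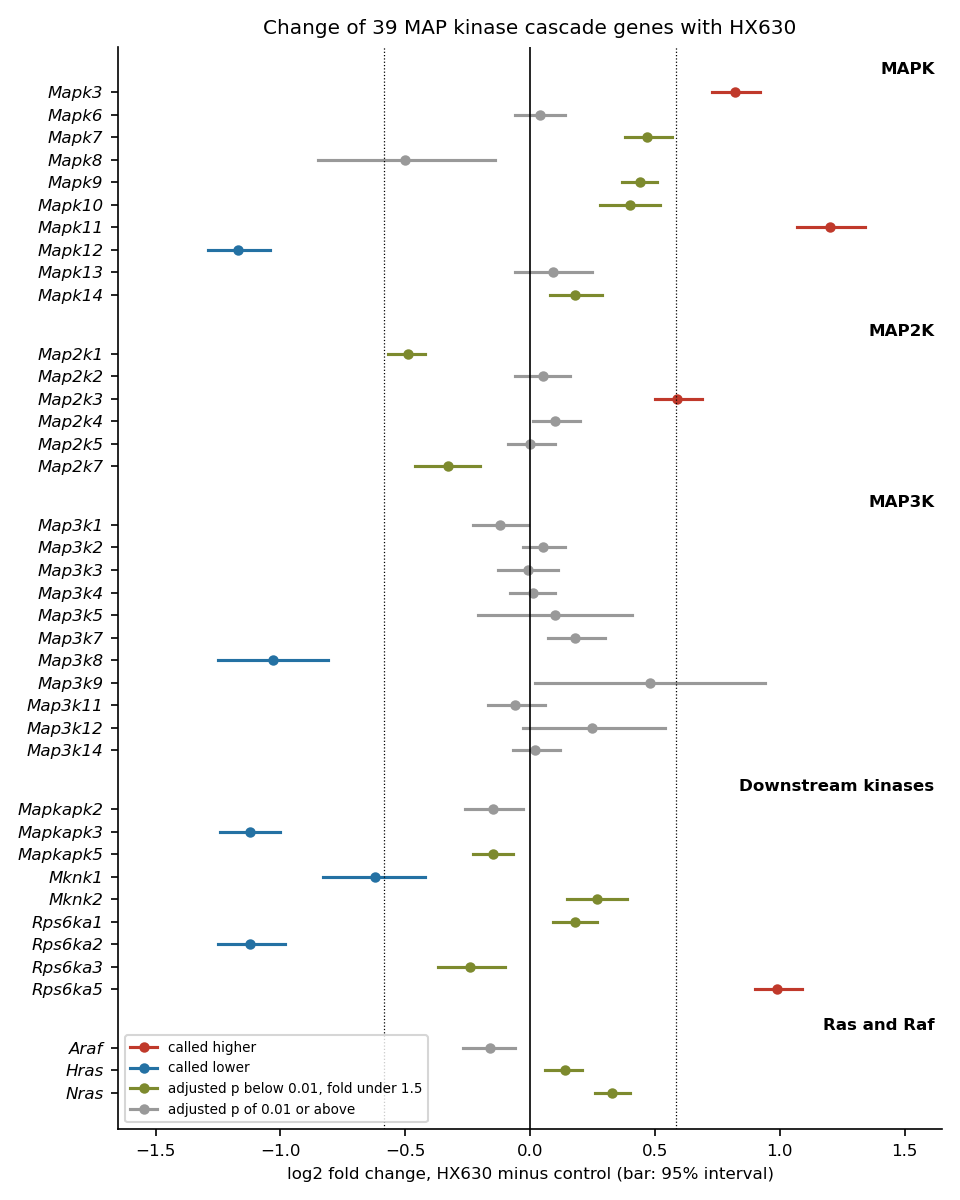
Difference between HX630 and control for each of the 39 tested members, by tier, on the log2 scale with 95% intervals from limma (4 arrays per group); the dotted lines mark a fold change of 1.5. The differences run from -1.17 for Mapk12 to 1.20 for Mapk11, and 10 of the 11 MAP3K genes have an adjusted p of 0.01 or above.

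Among the MAPKs, the p38 genes held both extremes. Mapk11 encodes p38β, a p38 kinase close in sequence to p38α. Its level was -1.29, -1.41, -1.49 and -1.54 on control arrays 1 to 4 and -0.25, -0.19, -0.24 and -0.26 on HX630 arrays 1 to 4. All HX630 arrays lay above all control arrays. Mapk11 rose from -1.43 ± 0.11 to -0.23 ± 0.031 (SD, n = 4 each), a difference of 1.20 (SE 0.058, 2.3-fold, adjusted p = 1.45e-06, limma), the largest of the 39 members.

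Mapk12 encodes p38γ, which is known for its high level in skeletal muscle, and it was one of 2 members that the study named among growth-related genes; the other is Map3k8. It gave 2.14, 1.99, 2.03 and 2.09 on the control arrays and 0.98, 0.83, 0.81 and 0.96 on the HX630 arrays. Every HX630 array was below every control array. Mapk12 fell from 2.06 ± 0.068 to 0.90 ± 0.085 (SD, n = 4 each), a difference of -1.17 (SE 0.055, adjusted p = 1.36e-06, limma) that left 44.6% of the control signal. The 2 genes are neighbours on chromosome 15, both on the minus strand.

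The other p38 genes moved little. Mapk14, which encodes p38α, the most widely expressed p38, had 2.18, 2.15, 2.04 and 2.08 on the control arrays and 2.34, 2.33, 2.23 and 2.28 on the HX630 arrays. The groups did not overlap, and the difference of 0.18 (SE 0.045, adjusted p = 0.00959, limma) was past the threshold by a small margin and under the fold limit. With 1 array left out its adjusted p ran from 0.00676 to 0.0318 and was above 0.01 in 7 of the 8 cases. The dimmer probe of Mapk14 gave -0.08 (adjusted p = 0.417, limma). Over all alternative fits the difference of Mapk14 ran from 0.05 to 0.40. Mapk13, the p38δ gene and the neighbour of Mapk14 on chromosome 17, differed by 0.09 and did not pass the test.

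Mapk3 encodes ERK1, one of the classical ERKs of the growth factor branch. Its level was 2.95, 2.93, 2.86 and 2.84 on the control arrays and 3.67, 3.72, 3.78 and 3.71 on the HX630 arrays. The 2 groups were far apart relative to their spread. Mapk3 rose from 2.90 ± 0.054 to 3.72 ± 0.045 (SD, n = 4 each), a difference of 0.82 (SE 0.041, 1.77-fold, adjusted p = 1.77e-06, limma), and its dimmer probe gave 0.76 (adjusted p = 9.81e-07). Mapk7, which encodes ERK5, the MAPK with a long C-terminal transactivation domain, was at 1.92, 1.90, 1.86 and 1.86 in control and at 2.40, 2.42, 2.30 and 2.33 with HX630. It was higher by 0.47 (SE 0.039, adjusted p = 2.66e-05, limma) on non-overlapping arrays, under the fold limit. Mapk6, the gene of the atypical ERK3, differed by 0.04 and did not pass the test.

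None of the 3 JNK genes was called. Mapk9 (JNK2) had 0.98, 0.94, 0.98 and 0.97 on the control arrays and 1.39, 1.43, 1.39 and 1.42 on the HX630 arrays, and Mapk10, the JNK3 gene known mainly from neurons, had 2.77, 2.64, 2.60 and 2.59 against 2.98, 3.09, 3.05 and 3.08. Both were higher on every HX630 array and stayed under the fold limit, at 0.44 (adjusted p = 8.29e-06, limma) and 0.40 (adjusted p = 2.78e-04, limma). Mapk8 (JNK1) went the other way on its estimate but not past the threshold. Its control arrays gave -3.42, -3.05, -3.73 and -3.11 and its HX630 arrays -3.70, -4.0, -3.81 and -3.77, and the difference of -0.50 had an SE of 0.15 and an adjusted p of 0.0235 (limma). Control replicate 3, at -3.73, lay within the HX630 range, and without it Mapk8 was called at -0.63 (adjusted p = 0.003, limma). Its second probe gave -0.40 (adjusted p = 0.00166) and the last 0.05 (adjusted p = 0.628).

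**Figure D2:**
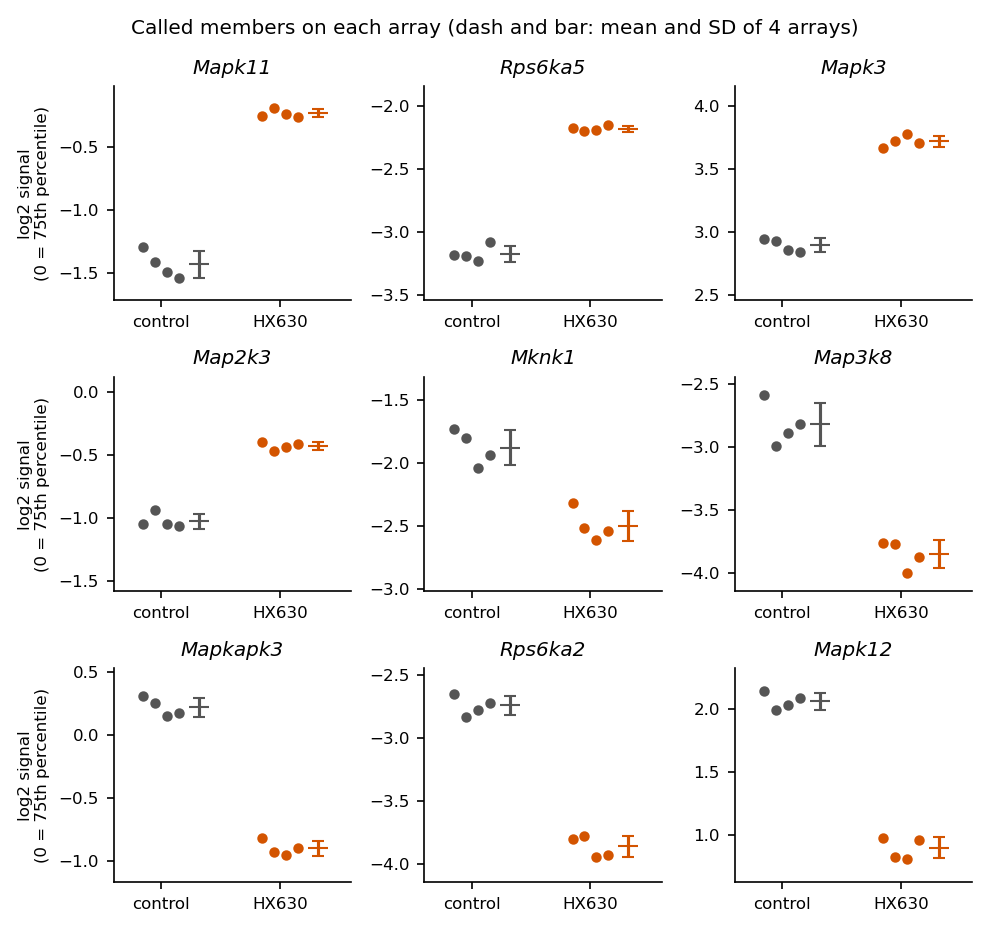
Level of the 9 called members on each of the 8 arrays, as log2 signal relative to the 75th percentile of the array, with points in the order of replicates 1 to 4 and a dash and bar for the mean and SD. In each panel the 4 HX630 arrays lie wholly above or wholly below the 4 control arrays; levels are not comparable between panels.

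Of the 6 MAP2K genes tested, 1 was called. Map2k3 encodes MKK3, a kinase that activates p38, and its control arrays gave -1.05, -0.94, -1.05 and -1.07 and its HX630 arrays -0.40, -0.47, -0.44 and -0.42. The groups did not overlap, and Map2k3 rose by 0.59 (SE 0.039, 1.51-fold, adjusted p = 7.68e-06, limma), just past the fold limit. Without control replicate 4 or without HX630 replicate 1 the difference was 0.58, just under that limit. Map2k6, which encodes MKK6, the other dedicated activator of p38, did not rise well above background on a single array, and it was left out of the test.

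The MAP2K genes of the other branches were lower or did not pass the test. Map2k1 encodes MEK1, which phosphorylates the ERKs, and had 2.01, 2.05, 2.05 and 2.00 in control against 1.56, 1.56, 1.54 and 1.5 with HX630. Every HX630 array was below every control array, with a difference of -0.49 (SE 0.032, adjusted p = 6.99e-06, limma) under the fold limit. Map2k2 (MEK2) differed by 0.05 and did not pass the test. Map2k7, the gene of the JNK kinase MKK7, was at -2.59, -2.59, -2.69 and -2.74 in control and at -2.90, -2.93, -3.08 and -3.02 with HX630. It was lower by -0.33 on non-overlapping arrays (adjusted p = 0.00122, limma). Over 20 alternative fits that difference ran from -0.36 to -0.11, with an adjusted p of up to 0.113 (limma). Map2k4 (MKK4, an activator of JNK and p38) differed by 0.10 and Map2k5 (MEK5, upstream of ERK5) by 0.00, both short of the threshold.

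Map3k8 was the only called MAP3K among the 11 tested. It encodes TPL2, also named COT, a MAP3K known to activate MEK downstream of Toll-like and TNF receptors. Control arrays 1 to 4 gave -2.59, -2.99, -2.89 and -2.82 and HX630 arrays -3.76, -3.77, -4.0 and -3.87. The highest HX630 array was below the lowest control array. Map3k8 fell from -2.82 ± 0.17 to -3.85 ± 0.11 (SD, n = 4 each), a difference of -1.03 (SE 0.094, adjusted p = 4.66e-05, limma) that left 49.1% of the control signal.

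The remaining 10 MAP3K genes did not pass the test with their brightest probe. Map3k1, Map3k2, Map3k3 and Map3k4 (MEKK1 to MEKK4), Map3k11 (MLK3) and Map3k14 (NIK, of the non-canonical NF-κB route) differed by -0.12, 0.05, -0.01, 0.01, -0.06 and 0.02. These 6 estimates were small beside the median of 0.28 in absolute size over all genes. Map3k1 came below an adjusted p of 0.01 without control replicate 2, at -0.16 (adjusted p = 0.00819, limma), and in the mean of its probes, at -0.20 (adjusted p = 0.0047, limma). Its dimmer probe was lower on every HX630 array, by -0.28 (adjusted p = 0.00858, limma). Map3k7, which encodes TAK1, a hub of TNF and TGF-β signalling, had 2.44, 2.29, 2.25 and 2.27 in control and 2.51, 2.54, 2.48 and 2.46 with HX630, higher on every HX630 array by 0.18 (adjusted p = 0.0132, limma). It came below 0.01 without control replicate 1, at 0.23 (adjusted p = 0.00123, limma), and both of its dimmer probes did so with all arrays, at 0.21 (adjusted p = 0.00185) and 0.32 (adjusted p = 3.38e-04).

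The mixed lineage kinase genes Map3k9 and Map3k12 were less precisely measured. Map3k9 was well above background on 2 of 4 control arrays and on all 4 HX630 arrays, with -6.28, -7.22, -6.63 and -6.56 against -6.43, -6.23, -6.16 and -5.95, and the difference of 0.48 (SE 0.2, adjusted p = 0.0688, limma) did not pass. Map3k12 (DLK, known from axon injury) differed by 0.25 (SE 0.12, adjusted p = 0.106, limma). Map3k5 encodes ASK1, the MAP3K of oxidative stress, and its control arrays were widely spread at -0.03, 0.42, -0.20 and -0.16 against 0.20, 0.09, 0.09 and 0.06. Control replicate 2 lay above all HX630 arrays and the other control arrays below them, and the difference was 0.10 (SE 0.13, adjusted p = 0.535, limma). Over all 18 members at an adjusted p of 0.01 or above, the 95% intervals lay between -0.85 and 0.94. Without Map3k9, Map3k12, Map3k5 and Mapk8, which had the widest intervals, those of the other 14 lay between -0.27 and 0.30. Some of these held values of a single sign, such as those of Map3k7 (0.07 to 0.30) and Araf (-0.27 to -0.06). They bound the differences and do not show that the groups were equal.

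Of the 9 kinases tested that MAPKs phosphorylate, 4 were called, where 19.5% of all genes were. In each of the 9 the HX630 arrays lay wholly above (3 genes) or wholly below (6 genes) the control arrays, as they did for 28.6% and 32.8% of all genes. Mapkapk3 encodes MK3, a substrate of p38 that, with MK2, acts on the stability of cytokine mRNA. It was at 0.31, 0.25, 0.15 and 0.17 in control and at -0.82, -0.93, -0.95 and -0.90 with HX630. All 4 HX630 arrays were lower by more than the whole spread of the control arrays. Mapkapk3 fell from 0.22 ± 0.075 to -0.90 ± 0.059 (SD, n = 4 each), a difference of -1.12 (SE 0.05, adjusted p = 1.03e-06, limma), leaving 46% of the control signal. Mapkapk2 (MK2) differed by -0.15 and did not pass (adjusted p = 0.0313, limma), and Mapkapk5 (MK5) was lower by -0.15 (adjusted p = 0.00572, limma), with 6 of the 8 fits that leave out 1 array above 0.01 and a sign that turned to 0.07 with spike-in scaling.

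The ribosomal S6 kinase genes moved in both directions. Rps6ka2 encodes RSK3, a substrate of the ERKs, with -2.65, -2.83, -2.78 and -2.72 on the control arrays and -3.80, -3.78, -3.94 and -3.93 on the HX630 arrays. The groups did not overlap. Rps6ka2 fell from -2.74 ± 0.075 to -3.86 ± 0.084 (SD, n = 4 each), a difference of -1.12 (SE 0.057, adjusted p = 1.94e-06, limma), leaving 46.1% of the control signal. Rps6ka5 encodes MSK1, which both ERK and p38 activate and which phosphorylates CREB and histone H3. It was at -3.18, -3.19, -3.23 and -3.08 in control and at -2.17, -2.20, -2.19 and -2.15 with HX630. All HX630 arrays were higher, and within 0.05 of each other. Rps6ka5 rose from -3.17 ± 0.065 to -2.18 ± 0.024 (SD, n = 4 each), a difference of 0.99 (SE 0.041, 1.99-fold, adjusted p = 7.36e-07, limma), the smallest adjusted p of the 39 members.

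Rps6ka1 (RSK1) and Rps6ka3 (RSK2, the Coffin-Lowry syndrome gene) differed by less. Rps6ka1 was higher by 0.18 (adjusted p = 0.00452, limma) and Rps6ka3 lower by -0.24 (adjusted p = 0.00984, limma), both on non-overlapping arrays and under the fold limit. With 1 array left out, Rps6ka1 was above 0.01 in 6 of 8 fits and Rps6ka3 in 7 of 8. Over all alternative fits the difference of Rps6ka3 ran from -0.28 to -0.01, with an adjusted p of up to 0.874 (limma). The MNK genes, whose kinases phosphorylate the translation factor eIF4E, went apart. Mknk1 gave -1.73, -1.80, -2.04 and -1.94 in control and -2.32, -2.52, -2.61 and -2.54 with HX630. The groups did not overlap, and Mknk1 fell by 0.62 on the log2 scale (SE 0.088, adjusted p = 5.06e-04, limma), leaving 65% of the control signal. Its call rested on the fold limit: the difference was -0.57 without control replicate 1 and -0.58 without HX630 replicate 3, and it was -0.53 with the array median, -0.57 with quantile normalization and -0.40 with spike-in scaling in place of the 75th percentile. Mknk2 had 4.84, 4.65, 4.64 and 4.68 in control and 4.97, 4.99, 4.99 and 4.93 with HX630, and it was higher by 0.27 on non-overlapping arrays (adjusted p = 0.00251, limma), under the fold limit.

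No Ras or Raf gene was called with its brightest probe. Nras, a Ras GTPase that starts the ERK cascade, was at 1.24, 1.19, 1.24 and 1.24 in control and at 1.58, 1.56, 1.55 and 1.55 with HX630. It was higher on every HX630 array, by 0.33 (SE 0.03, adjusted p = 4.22e-05, limma), a second probe gave 0.40 (adjusted p = 3.50e-04) and another -0.06 (adjusted p = 0.284). Hras had 2.69, 2.76, 2.71 and 2.67 in control and 2.83, 2.85, 2.83 and 2.87 with HX630, higher by 0.14 (adjusted p = 0.00813, limma), above 0.01 in 7 of the 8 fits that leave out 1 array, and -0.03 in the mean of its probes. Araf, a Raf kinase gene, gave 3.31, 3.18, 3.18 and 3.20 in control and 3.02, 3.11, 3.00 and 3.09 with HX630 by its brightest probe. That probe was lower on all HX630 arrays but did not pass the test, at -0.16 (adjusted p = 0.0143, limma). The next probe of Araf was called higher, with 0.89, 0.84, 0.74 and 0.80 against 1.46, 1.44, 1.37 and 1.40, a difference of 0.60 (adjusted p = 1.05e-05, limma), and the dimmest gave 0.95 with an SE of 0.28 (adjusted p = 0.0195), where HX630 replicate 3 stood apart at -1.36. Araf therefore has no single direction on this array.

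Of the 12 members at an adjusted p below 0.01 under the fold limit, 7 stayed below 0.01 with each array left out in turn (Mapk7, Mapk9, Mapk10, Map2k1, Map2k7, Mknk2 and Nras) and 5 did not (Mapk14, Mapkapk5, Rps6ka1, Rps6ka3 and Hras). These 5 had the smallest differences of the 12, between -0.24 and 0.18. Of the 7, Mapk9 and Map2k7 went above 0.01 in other alternative fits, with an adjusted p of up to 0.057 and 0.113 (limma). Their differences shrank to as little as 0.10 and -0.11.

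The ratio of related members on the same array does not depend on how the arrays were scaled to each other by a constant. It is given for 13 pairs of close relatives, drawn from 22 members. The pairs were chosen after their values were seen, so the shifts are a description with no test. In 11 of the 13 pairs the ratios of the groups did not overlap. Of all single genes, 28.6% lay wholly above and 32.8% wholly below control. A share over ratios of other gene pairs, which would be the matching comparison, was not computed. The largest shift was that of Mapk11 over Mapk12. Relative to the control mean, the log2 ratio was 0.06, 0.10, -0.02 and -0.14 on the control arrays and 2.27, 2.48, 2.44 and 2.27 on the HX630 arrays. The ratio of p38β to p38γ RNA was thus higher on all 4 HX630 arrays, by 2.37 on the log2 scale (SE 0.075), which is 5.16-fold.

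Where 1 gene of a pair was called and the other was not, the ratio followed the called gene. Mapk13 over Mapk12 shifted by 1.26 (SE 0.11) and Mapk14 over Mapk11 by -1.02 (SE 0.039), so each p38 gene that was not called shifted relative to a called one. Rps6ka1 over Rps6ka2 shifted by 1.30 (SE 0.078), Mapkapk2 over Mapkapk3 by 0.97 (SE 0.064) and Mknk2 over Mknk1 by 0.89 (SE 0.081). In each of these 3 pairs the second gene was the one called lower. Of the pairs not yet named, Mapk8 over Mapk9 is given below, and the others shifted by less. Map2k2 over Map2k1 shifted by 0.54 (SE 0.05), Map2k4 over Map2k7 by 0.43 (SE 0.085) and Hras over Nras by -0.20 (SE 0.034). For Rps6ka1 over Rps6ka3 the shift was 0.42 (SE 0.082), and 0.26 from the mean over probes.

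Among the JNK genes, Mapk8 over Mapk9 shifted by -0.93 (SE 0.18), with control arrays spread from -0.41 to 0.30 and HX630 arrays from -1.14 to -0.80. This rested on the brightest probes: with the mean of all probes of each gene the shift was -0.38. For Mapk10 over Mapk9 the shift was -0.04 (SE 0.046) and for Map3k3 over Map3k2 it was -0.06 (SE 0.067), with overlapping groups in both, and with the mean of all probes these were 0.23 and 0.16.

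**Figure D3:**
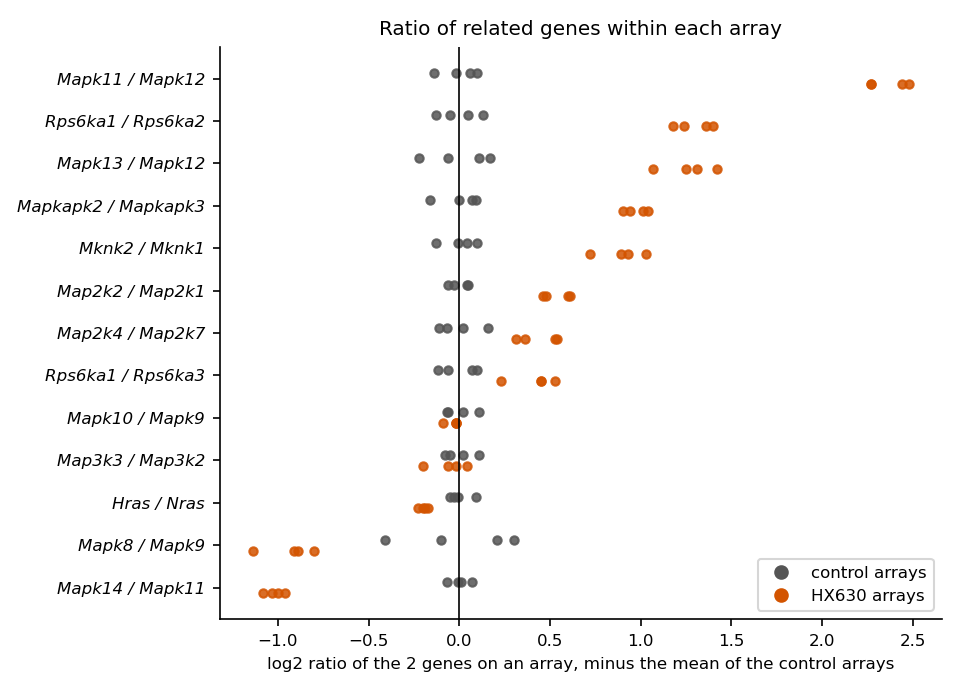
Log2 ratio of 2 related members on each array, minus the mean of that ratio over the 4 control arrays, for 13 pairs; grey points are control arrays and orange points HX630 arrays. The ratio of Mapk11 to Mapk12 lies between 2.27 and 2.48 on the HX630 arrays, and the points of the groups overlap for Mapk10 over Mapk9 and for Map3k3 over Map3k2.

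The probes of a member did not always move alike. Of the 39 members, 20 had 1 tested probe, among them all called members other than Mapk3, and 19 had several. The estimates of all probes had the same sign for 7 of these 19 and both signs for 12, and no member had probes past an adjusted p of 0.01 in opposite directions. For 9 of the 19 the probes were 0.3 or more apart. Apart from Araf, Map3k5 was the member with a call by a dimmer probe alone. That probe gave -2.28, -1.89, -2.43 and -2.49 on the control arrays and -1.53, -1.5, -1.49 and -1.57 on the HX630 arrays, all HX630 arrays above all control arrays, a difference of 0.75 (adjusted p = 0.00126, limma), against 0.10 for the brightest probe. Mapk9 had 0.44 and -0.25 (adjusted p = 0.0189 for the latter), and Map3k2 had 0.05 and -0.39 (adjusted p = 4.5e-05 for the latter). Probes of 1 gene can read different transcript ends or forms, and which of these each probe reads was not examined.

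**Figure D4:**
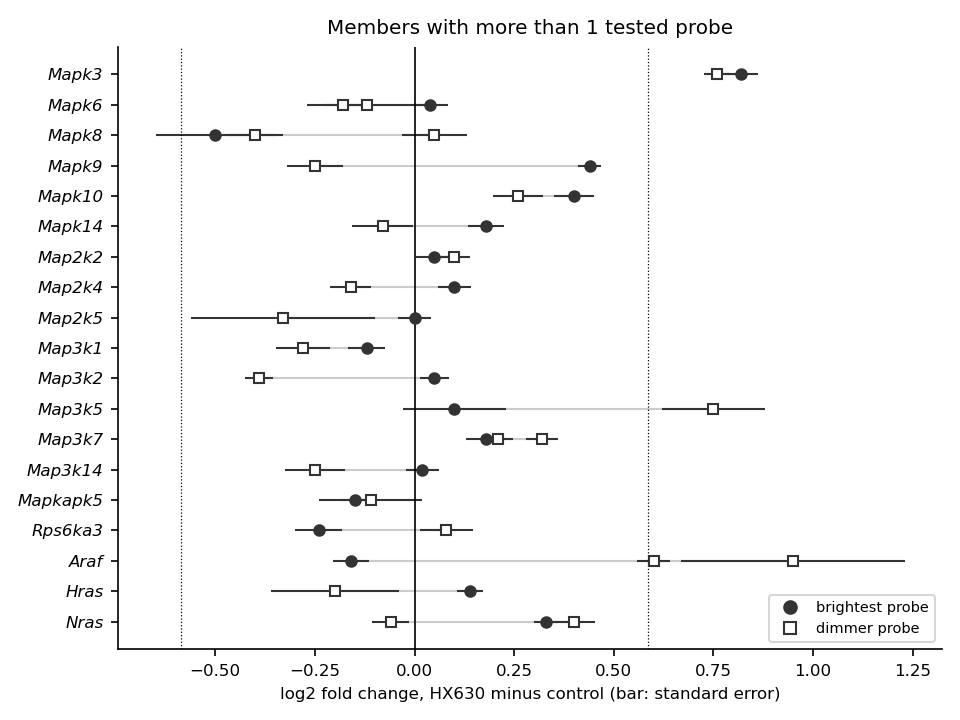
Difference between HX630 and control for every tested probe of the 19 members with more than 1, as log2 fold change with the standard error; filled circles are the brightest probe of a gene, open squares its dimmer probes, and dotted lines mark a fold change of 1.5. The probes of Mapk3 lie together at 0.76 and 0.82, while those of Araf run from -0.16 to 0.95 and those of Map3k5 from 0.10 to 0.75.

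Other genes of the same pathways were taken from 5 lists with 90 genes, of which 77 were tested, 9 were called higher and 12 lower, where 8.38% and 11.2% of all genes were. The lists were not tested against other genes. Of 13 tested MAPK phosphatases and feedback inhibitors, which switch MAPKs or their activators off, 5 were called lower and 0 higher, with a median of -0.31, where the median of all genes was -0.03. With spike-in scaling 1 was called higher. Dusp4, a phosphatase of nuclear MAPKs, was at 1.22, 1.15, 1.15 and 1.18 in control and at -0.56, -0.82, -0.80 and -0.83 with HX630. It fell by 1.93 on the log2 scale (SE 0.064, adjusted p = 3.18e-07, limma). Spred2, a membrane inhibitor of the Ras to ERK step, fell by 1.59 (adjusted p = 1.28e-06, limma) and Dusp1, a stress-induced MAPK phosphatase, by 0.85 (adjusted p = 1.29e-06, limma), with non-overlapping groups in each case. Dusp5, a nuclear phosphatase of ERK, was higher by 0.46 (adjusted p = 0.00126, limma), under the fold limit. Dusp6 and Dusp9, phosphatases with a preference for ERK, were not well above background on any array.

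Of the 20 scaffolds and adaptors tested, 3 were called higher and 3 lower (1 lower with spike-in scaling), with a median of 0.03. The stress sensors of the Gadd45 family, which bind and activate MEKK4, were on both sides. Gadd45g had 3.46, 3.50, 3.38 and 3.40 in control and 1.71, 1.46, 1.47 and 1.47 with HX630, while Gadd45b had -0.09, -0.03, 0.01 and -0.11 against 0.92, 0.93, 1.02 and 0.92. Gadd45g fell by 1.90 on the log2 scale (SE 0.065, adjusted p = 3.63e-07, limma), Gadd45b rose by 1.00 (SE 0.043, adjusted p = 8.42e-07, limma) and Gadd45a rose by 0.91 (SE 0.14, adjusted p = 9.84e-04, limma). Map3k4, which encodes their partner MEKK4, differed by 0.01 and did not pass.

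Of 18 related kinases tested, 4 were called higher and 1 lower, with a median of 0.08; 0 were called lower with the array median, spike-in scaling, normexp, the mean of all probes or without control replicate 3, and 2 without control replicate 1, HX630 replicate 3 or HX630 replicate 4. Rps6ka6 (RSK4), a relative of the RSK members above, was at -4.42, -4.28, -4.61 and -4.54 in control and at -2.87, -2.84, -2.99 and -2.94 with HX630. It rose by 1.55 (SE 0.077, adjusted p = 1.69e-06, limma), opposite to Rps6ka2. Tnik and Map4k4, MAP4K-type kinases known as activators of the JNK route, rose by 0.90 (adjusted p = 2.51e-06, limma) and 0.76 (adjusted p = 1.21e-06, limma), the latter by its brightest probe, while its dimmer probe gave 0.11 (adjusted p = 0.0856).

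Of 13 Ras-like GTPases and their regulators tested, 1 was called in each direction, with a median of 0.08; 3 were called higher with the array median or quantile normalization, 4 with spike-in scaling and 2 without control replicate 4, and 2 were called lower with no filter on dim probes. Rras2 (TC21) fell by 0.89 on the log2 scale (adjusted p = 7.74e-07, limma) and Mras rose by 0.77 (adjusted p = 8.31e-06, limma). Of 13 transcription factors that MAPKs phosphorylate, 1 was called higher and 2 lower, with a median of -0.22. Ddit3, which encodes the stress factor CHOP, a substrate of p38, fell by 1.55 (adjusted p = 1.67e-06, limma), Mef2d fell by 0.99 (adjusted p = 2.43e-06, limma) and Elk3, a ternary complex factor, rose by 0.68 (adjusted p = 1.1e-05, limma). The dimmer probes of Elk3 gave 0.55 (adjusted p = 6.6e-06, limma) and 0.38 (adjusted p = 0.0217, limma), both under the fold limit.

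The labelled cell type was checked by its markers. All 6 corticotroph markers (Pomc, Tbx19, Neurod1, Pcsk1, Crhr1 and Pitx1) were well above background on all 8 arrays, with a summed signal, in units of the 75th percentile, of 301 to 376 in control and 218 to 228 with HX630. This sum follows its brightest genes, and the 6 did not go one way: Neurod1 and Crhr1 were called higher at 0.72 and 1.11, Pcsk1 was called lower at -2.06, and Pomc, Tbx19 and Pitx1 were lower at -0.45, -0.37 and -0.32, under the fold limit. Of 7 markers of other pituitary hormone cells, Prl, Tshb and Cga were not well above background on any array. Gh, which was called lower, and Lhb were well above it on all 8. The sum of the 7 was 0.145 to 0.27 in control and 0.174 to 0.199 with HX630. Pdgfra of the fibroblast markers and Cdh5 of the endothelial markers were not well above background on any array. Other markers of these lists were: Col1a2 and Dcn, and Pecam1 and Kdr, were well above it on all 8 arrays. The control mean of Kdr was 1.54, above the 75th percentile. The fibroblast markers (4, with Dcn called higher) summed to 0.0839 to 0.103 in control and 0.101 to 0.141 with HX630, the endothelial markers (3, with Pecam1 called lower) to 2.7 to 3.35 and 2.15 to 2.63, and the 2 blood cell markers on the array (Ptprc and Hba-a1, the latter called lower) to 0.161 to 0.211 and 0.106 to 0.142. The corticotroph, endothelial and blood marker sums thus did not overlap between the groups, and their part in the differences of the kinase genes was not tested.

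In 20 alternative fits, 8 of which left out 1 array, 7 of the 9 called members kept their call throughout. The difference of Mapk12 ran from -1.19 to -0.95, that of Mapk11 from 1.12 to 1.42 and that of Mapk3 from 0.79 to 1.04. Rps6ka5 ran from 0.73 to 1.21, Map3k8 from -1.08 to -0.80, and Mapkapk3 and Rps6ka2 from -1.15 to -0.90 each. The exceptions were Map2k3, from 0.57 to 0.82, and Mknk1, from -0.68 to -0.40, which crossed the fold limit and kept their direction. Scaling to the spike-in probes raised the median of all genes by 0.22, to 0.19, and turned the split of all calls from 1284 higher and 1710 lower (42.9% higher) to 2501 and 1031 (70.8% higher); the array median gave 54.7% higher. The median of the members stood 0.08 above that of all genes with the 75th percentile, and by construction with any other constant per array, and it stood 0.05 above with quantile normalization, 0.12 with normexp and 0.03 with the mean of all probes.

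**Figure D5:**
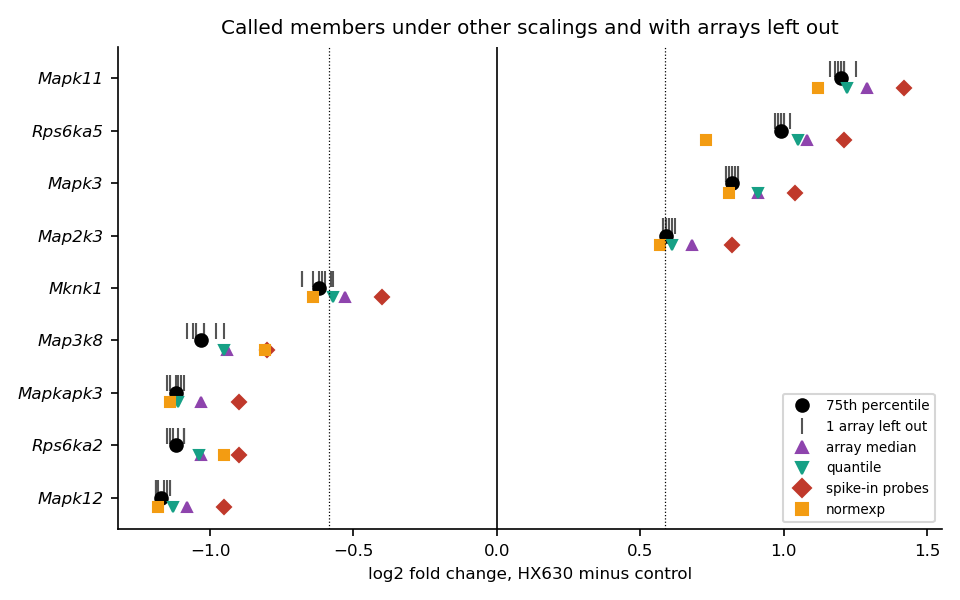
Difference between HX630 and control of the 9 called members, on the log2 scale, with the 75th percentile scaling (black circles), with each array left out in turn (ticks) and under 4 other scalings or background corrections; dotted lines mark a fold change of 1.5. Under the spike-in scaling Mapk11 reaches 1.42 and Mknk1 -0.40, and no called member changes sign.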

How the data were processed

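RNA of 4 control and 4 HX630 samples of AtT20 cells was hybridised to 1-color Agilent mouse arrays. The authors deposited, for each array, the output of Feature Extraction 10.7.3.1, in which the processed intensity of a spot is corrected for background. They also deposited a log2 table made with GeneSpring 12.0, which holds log2 values of the same signals set to the 75th percentile of the array (median difference from the values computed here up to 0.0013; column medians -3.91 to -3.67).

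Values were computed in R 4.3.3 with limma 3.58.1. An array has 44397 spots; the 1377 control spots and outlier spots were dropped before replicate spots were averaged to 39429 probes. RefSeq accessions named 26055 probes (66.1%), giving 19751 genes. The processed intensity was taken to log2 and the 75th percentile of the array, over these probe values, was subtracted. Probes well above background on at least 4 of 8 arrays (28553) were fitted with lmFit and eBayes, without a replicate block, and p-values were adjusted over all of them. The fit was tested on simulated data. A gene is its brightest tested probe (15320 genes). The thresholds for a call, 0.01 for the adjusted p and 1.5 for the fold change, follow the study's criteria, with the adjustment added. The median standard error over the tested probes was 0.066, and the number of arrays limits the precision.

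Members and lists were chosen with earlier results of these data known. Values are given for every called member, for Mapk12 and Map3k8, for up to 3 further members of a tier with the largest differences at an adjusted p below 0.01, for members called by a dimmer probe alone, for members not tested, and for up to 3 called genes of each other list; further members are given so that all are accounted for. Alternatives were the scaling, background correction, probe filter, outlier spots, variance model, test, thresholds, probe summary, a replicate block and leaving out each array. The array probe sequences and protein sequences were not used here.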

Additional observations from a re-analysis of the deposited data

Results flagged for a closer look

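In each group of 4 arrays, the array farthest from the others was compared with Dixon's critical value for the gap over the range. Of 84 groups of 4 arrays examined, 5 were above it, and chance alone gives about 1 in 20, or 4.2. Mapk6 was above it in the HX630 group at 0.933, where replicate 2 lay at 1.48 and the next array at 1.42. Map2k3 was above it in the control group at 0.843, with replicate 2 at -0.94 and the next at -1.05. Araf was above it in the control group at 0.855, with replicate 1 at 3.31 and the next at 3.20. Nras was above it in the control group at 0.989, with replicate 2 at 1.19 and the others at 1.24. The mean correlation of an array with the rest of its group was above it for the control group at 0.944, where replicate 1 had 0.9945. Without control replicate 1, 4 members were called higher and 4 lower, Mknk1 being the call that was lost.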

How the results depend on the processing

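With spike-in scaling 7 members were called higher, adding Mapk7, Mapk9 and Mapk10 at 0.70, 0.66 and 0.62, and 20 were higher at any fold. With no fold limit 12 were called higher and 9 lower, and at a fold change above 2, 1 was called higher. The members' median was 0.14 with the array median, 0.08 with quantile normalization, 0.27 with spike-in scaling and -0.01 with the mean of all probes. With 1 array left out, 3 to 4 were called higher and 4 to 6 lower, 9 to 11 were higher and 7 to 9 lower at any fold, and the median was 0.03 to 0.06. Of 779 values of single members, 738 kept direction and call, 8 lost and 5 gained the call, and 28 changed sign, all of the latter for 15 members that were not called. The sign changed with the mean of all probes for Mapk6 (-0.09), Map2k4 (-0.03), Map2k5 (-0.16), Map3k2 (-0.17), Map3k14 (-0.11), Araf (0.46) and Hras (-0.03); with spike-in scaling for Map3k1 (0.10), Map3k3 (0.21), Map3k11 (0.17), Mapkapk2 (0.07), Mapkapk5 (0.07) and Araf (0.06); with the array median for Map3k3 (0.08) and Map3k11 (0.03); for Map3k3 with quantile normalization (0.04) and the percentile over detected probes (0.01); and with normexp for Map3k9 (-0.15) and Map3k12 (-0.04). With an array left out, Map2k5 ran to -0.02 and -0.01, Map3k3 to 0.02, 0.00 and 0.01, and Map3k4 and Map3k14 to -0.01. The ratio of Mapk10 to Mapk9 shifted by 0.01 with quantile normalization, 0.23 with the mean of probes and -0.06 to 0.00 with an array left out, and that of Map3k3 to Map3k2 by 0.16 with the mean of probes. The causes were not tested. With the replicate number as a block, 4 members were called higher and 5 lower, 11 were higher and 8 lower at any fold, and the median was 0.05. Same-numbered samples correlated in their deviations at 0.52, -0.01, 0.24 and 0.38, and differently numbered ones at -0.41 to 0.26. Not every sample correlated best with its own number. The replicate number was also the position of the array on its slide in both groups, so a pairing of samples and a shared position cannot be told apart. The labels give no pairing, and the numbers were not taken to pair the samples. The normexp correction used the median spot intensity.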
